A study of Mus musculus with 6 samples.

Results

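The genes described here encode nuclear subunits of the 5 complexes of oxidative phosphorylation. Members were taken by symbol: Nduf followed by a, b, c, s or v and a number, Sdha to Sdhd, every symbol beginning with Uqcr or Atp5, and Cox symbols of the Cox4 to Cox8 groups with no further suffix. This took 81 of the 31276 symbols with counts. They comprised 35 subunits of complex I, 4 of complex II, 8 of complex III, 16 of complex IV and 15 of complex V. Ndufa4, long listed with complex I, was counted with complex IV. The remaining 3 matched by name and are not subunits: Ndufa4l2 is a paralog of Ndufa4, and Atp5s and Atp5sl are assembly-related. Of the 81, 78 passed the filter on low counts. Cox7b2, Cox8b and Cox8c did not.

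RNA came from the brains of C57BL/6 mice at postnatal day 14, with 3 wild-type samples (WT) and 3 samples labelled PRMT5 olig2cre KO (KO). PRMT5 is an arginine methyltransferase, and Olig2-Cre acts in cells that have expressed Olig2, chiefly the oligodendrocyte lineage and some neurons. Neurons, astrocytes and other cells of the brain are therefore in the same RNA. Whether each sample is a different animal is not stated, so the p-values given reflect only the scatter among the 6 samples, part of which may be technical.

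Oxidative phosphorylation passes electrons from NADH (through complex I) and succinate (through complex II) to complex III and then to oxygen at complex IV. The protons pumped on the way drive complex V, which makes ATP. Complexes I, III, IV and V are built from nuclear and mitochondrial gene products, whereas complex II is wholly nuclear. Neurons depend heavily on this pathway for ion pumping, and differentiating oligodendrocytes draw on it while they build myelin.

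Library totals ran from 15089140 to 16872925 counts, and levels are given as CPM, counts relative to a library total scaled with TMM factors. The targeted gene, Prmt5, stood at 91.0 ± 0.75 CPM (SD, n = 3) in the WT libraries and at 72.7 ± 7.66 CPM in the KO libraries. Its adjusted p was 0.232 (edgeR, quasi-likelihood), and 0.0379 with the replicate number as a block. Libraries differed in 3 ways beside the groups. WT replicate 1 and KO replicates 1 and 3 were high in cerebellar granule cell transcripts (5 markers summing to 576, 663 and 257 CPM), which summed to 79.2 to 107 CPM in the other libraries. Of these markers, Gabra6 had 0 counts in the other libraries and the rest were lower there. Xist, transcribed from the inactive X of females, had 509 to 634 CPM in 1 WT library (replicate 2) and 2 KO libraries (replicates 1 and 2), and 0.24 to 0.25 CPM elsewhere. Genes with short mRNAs were read relatively more in KO replicates 2 and 3 than in the other 4 libraries, as described further on. At an adjusted p under 0.05 (edgeR), 1.2% of all genes were called in either direction and 0.241% as higher in KO. Of the 6 oligodendrocyte markers, 6 were called lower in KO (summing to 7309 to 9956 CPM in WT and 868 to 1863 CPM in KO). So were 3 of 4 precursor markers (263 to 284 CPM against 126 to 130 CPM), and Cspg4 was lower without a call (log2 fold change -0.51). Meningeal fibroblast markers were called higher in 4 of 5 (110 to 118 CPM against 197 to 290 CPM), and Dcn was higher without a call (0.65). None of 6 neuron markers passed (5278 to 5666 CPM over all libraries, unadjusted p under 0.05 in 0), and none of 6 astrocyte markers (2779 CPM in KO replicate 3 and 3226 to 3616 CPM elsewhere, unadjusted p under 0.05 in 1). No marker of these lists was at 0 in every library.

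No oxidative phosphorylation gene passed the test, yet nearly all were measured slightly higher in KO. The fitted log2 fold change (KO over WT) was above 0 in 77 of 78 tested members, against 52.3% of all 16592 tested genes. Among 361 other genes with mRNAs of at most 1000 bases and a mean of at least 20 CPM, 83.9% were above 0. The median of the members was 0.17, a fold of 1.13, beside 0.01 for all genes and 0.13 for those 361. Under an adjusted p of 0.05, the quasi-likelihood test of edgeR (Benjamini-Hochberg adjusted over all genes) called 0 members. It called 1.2% of all genes in either direction and 0.241% as higher in KO. At an unadjusted p under 0.05 there were 20 members, each higher in KO, against 4.4% of all genes. DESeq2 called 0 members and 1.99% of all genes. limma-voom called 0 and 1.06% of all genes, and limma on the deposited signal after a log2 transform 0 and 1.19%. With a term for sex edgeR called 0 members and 0.777% of all genes, and the median of the members was 0.20 with 76 of 78 above 0. With the replicate block edgeR called 0 members and 3.41% of all genes. At an unadjusted p under 0.05 that blocked fit had 30 members, against 7.24% of all genes higher in KO. A change in the mix of cells and a change in RNA per cell, in either direction, cannot be told apart in such whole-brain RNA.

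**Figure D1:**
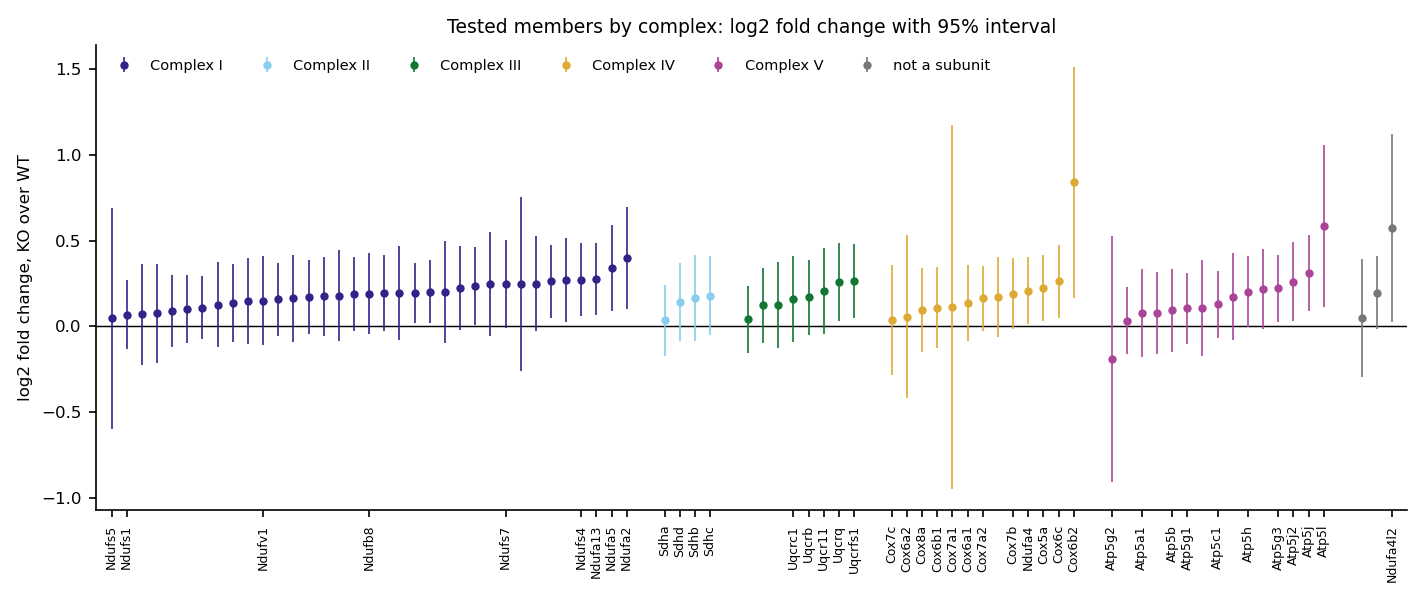
Log2 fold change of KO over WT (vertical axis) for each of the 78 tested genes, grouped by complex and ordered within it; points are edgeR estimates and lines their 95% intervals. Labels mark genes whose values are given in the text or that were called under an alternative, and Atp5h. Points lie above 0 in all but Atp5g2, and most intervals reach 0.

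The summed level of the 81 genes was 9037, 8971 and 9084 CPM in WT replicates 1 to 3 and 9222, 9757 and 10961 CPM in KO replicates 1 to 3. The WT libraries lay close together, KO replicate 1 just above them and KO replicate 3 far above. Group means were 9030 ± 56.6 and 9980 ± 891 CPM (SD, n = 3), 10.5% higher in KO. In 26 of the 78 tested members every KO library lay above every WT library, against 8.02% of all genes, and in 0 the reverse held, against 7.99% of all genes. By same-numbered pairs, 46 of 78 members were higher in KO for replicate 1, 67 for replicate 2 and 76 for replicate 3, with median log2 differences of 0.03, 0.17 and 0.31. After the adjustment for mRNA length described further on, 41, 52 and 65 were higher, with medians of 0.02, 0.04 and 0.14. Leaving out KO replicate 3 brought the median log2 fold change from 0.17 to 0.11, and 66 members stayed above 0. Without KO replicate 1, edgeR called 2 members higher (Atp5j, adjusted p = 0.0494, and Ndufa5, adjusted p = 0.0455), where 0.261% of all genes were called higher. The KO libraries left in that fit, replicates 2 and 3, are those that read short mRNAs relatively more.

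**Figure D2:**
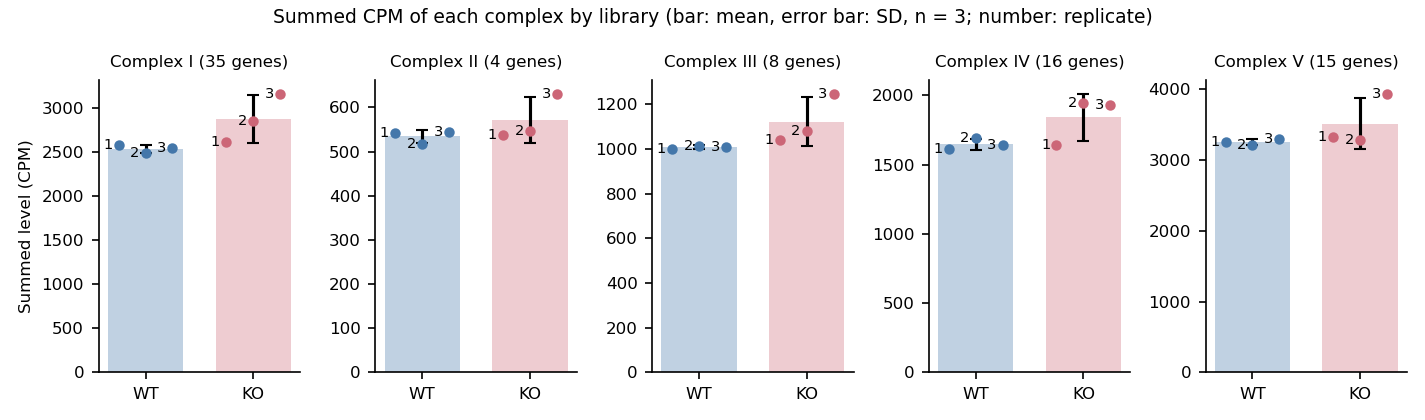
Summed CPM of the genes of each complex (vertical axes, from 0) in every library; points are libraries marked with their replicate number, bars are group means and error bars SD (n = 3). KO replicate 3 is the highest library for complexes I, II, III and V, and KO replicate 2 for complex IV.

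Complex I, the NADH dehydrogenase, was covered by 7 core subunits and 28 accessory ones. All 35 had a log2 fold change above 0, with a median of 0.19 (0.15 for the core and 0.19 for the accessory subunits), and 0 passed (9 at an unadjusted p under 0.05). In 12 the groups did not overlap. Beside this and the later counts by complex, 4.4% of all tested genes had an unadjusted p under 0.05 with KO higher. In 8.02% of all tested genes every KO library lay above every WT library. The summed level of complex I was 2577, 2488 and 2546 CPM in WT and 2610, 2847 and 3158 CPM in KO, 13.2% higher in KO.

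The 3 complex I members with the smallest p were accessory subunits. Ndufa5 (chr6:24518666-24528013, minus strand, mm10), part of the arm that projects into the matrix, stood at 45.6, 49.7 and 49.6 CPM in WT and 51.4, 68.0 and 63.8 CPM in KO. KO replicate 1 was close to the WT range and the other two KO libraries well above it. Its log2 fold change was 0.34 (95% interval 0.09 to 0.59, adjusted p = 0.321, and 0.0551 with the block). Ndufa2, also of the matrix arm, had 22.9, 21.8 and 22.7 CPM in WT and 24.4, 31.4 and 33.0 CPM in KO, with the same gap between KO replicate 1 and the other KO libraries. The log2 fold change of Ndufa2 was 0.40 (0.10 to 0.69, adjusted p = 0.326). Ndufa13, needed for complex I assembly, measured 129.6, 121 and 121 CPM in WT and 135, 152 and 163 CPM in KO, or 0.28 on the log2 scale (0.07 to 0.48, adjusted p = 0.328).

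Of the 7 core subunits of complex I, 2 had groups that did not overlap, beside 10 of the 28 accessory ones. The 3 core genes given here overlapped. Ndufs1, the largest iron-sulfur subunit, had 142, 124 and 136 CPM in WT and 134, 138 and 150.2 CPM in KO, and the groups overlapped (log2 fold change 0.07, interval -0.13 to 0.27). Ndufv1, which binds NADH, had 91.1, 106 and 106 CPM in WT and 96.3, 109 and 130.4 CPM in KO (0.15, -0.11 to 0.41). Ndufs7, the iron-sulfur subunit that hands electrons to quinone, overlapped through KO replicate 1, with 48.5, 45.5 and 46.3 CPM in WT and 47.3, 55 and 64.2 CPM in KO (0.25, -0.01 to 0.50). Leaving out 1 library at a time moved Ndufv1 between 0.03 and 0.25 and Ndufs7 between 0.13 and 0.35, both lowest without KO replicate 3, and Ndufs1 between 0.01 (without WT replicate 2) and 0.11. Per kb of main mRNA, Ndufb8, a membrane-arm accessory subunit, had the highest level of the complex (215 CPM per kb, where the median over the 35 was 81.0).

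Complex II, succinate dehydrogenase, is the one enzyme shared with the citric acid cycle, and its 4 genes showed the smallest shift in summed level. They summed to 542, 517 and 544 CPM in WT and 537, 547 and 630.5 CPM in KO, 6.94% higher in KO, and only KO replicate 3 lay clearly apart. The 4 log2 fold changes were all above 0 with a median of 0.15, 0 passed (0 at an unadjusted p under 0.05), and in 0 did the groups not overlap. Sdha, the flavoprotein that oxidises succinate, had 283, 263 and 297 CPM in WT and 277, 278 and 308 CPM in KO, and the groups overlapped (0.03, interval -0.17 to 0.24). Sdhb, the iron-sulfur subunit and the highest of the complex per kb (113 CPM per kb), had 118, 125 and 122 CPM in WT and 125, 122 and 162 CPM in KO (0.17, -0.08 to 0.41). The membrane anchors Sdhc and Sdhd had log2 fold changes of 0.18 (-0.05 to 0.41) and 0.14 (-0.09 to 0.37). Without KO replicate 3 the median of complex II was 0.04 and Sdhb stood at 0.02.

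Complex III, the cytochrome bc1 complex, summed to 1000.5, 1015 and 1010.0 CPM in WT and 1041, 1080 and 1246 CPM in KO, 11.3% higher in KO with the groups apart. All 8 genes had a log2 fold change above 0 (median 0.17), 0 passed (2 at an unadjusted p under 0.05), and in 2 the groups did not overlap. Uqcrfs1 (chr13:30540308-30545362, minus strand, mm10), the Rieske iron-sulfur protein, had 81.3, 82.2 and 76.0 CPM in WT and 84.6, 98.3 and 104.7 CPM in KO (0.26, interval 0.05 to 0.48, adjusted p = 0.394). Uqcrq, a small subunit near the quinone site, had 89.3, 96.1 and 92.4 CPM in WT and 97.6, 108 and 126 CPM in KO (0.26, 0.03 to 0.48, adjusted p = 0.441). In both genes KO replicate 1 sat just above the highest WT library. Uqcr11, the highest of the complex per kb (298 CPM per kb), overlapped between groups, with 115, 127 and 128 CPM in WT and 121, 141 and 164 CPM in KO (0.21, -0.04 to 0.46). The core protein Uqcrc1 had 203, 237 and 228 CPM in WT and 233, 226 and 287 CPM in KO (0.16, -0.09 to 0.41), with KO replicates 1 and 2 inside the WT range. Without KO replicate 3 the median of complex III was 0.07, Uqcrc1 stood at 0.04 and Uqcr11 at 0.09.

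Complex IV, cytochrome c oxidase, was the one complex in which KO replicate 2 matched KO replicate 3. Its 16 genes summed to 1612, 1690.3 and 1641 CPM in WT and 1644, 1943 and 1933 CPM in KO, 11.7% higher in KO, with KO replicate 1 inside the WT range. All 13 tested genes had a log2 fold change above 0 (median 0.16), 0 passed (4 at an unadjusted p under 0.05), and in 5 the groups did not overlap. Cox5a, which holds the matrix face of the enzyme, had 97.4, 98.1 and 89.0 CPM in WT and 104, 112 and 117 CPM in KO (0.23, interval 0.03 to 0.42, adjusted p = 0.421). Cox6c, a small membrane subunit, had 148, 145 and 141 CPM in WT and 154, 178 and 188 CPM in KO (0.26, 0.05 to 0.48, adjusted p = 0.386). Both kept all KO libraries above all WT libraries.

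Several complex IV subunits exist as paralogs used in different tissues, and the brain libraries held chiefly the widely expressed form of each. Per kb of main mRNA and averaged over the 6 libraries, Cox6a1 stood at 604 CPM and its heart and muscle paralog Cox6a2 at 21.4 CPM. Cox7a2 stood at 147 CPM per kb and the heart and muscle form Cox7a1 at 2.93, and Cox8a at 568 against 0.58 for the heart and muscle form Cox8b. Cox6b1 reached 322 CPM per kb and the testis form Cox6b2 4.56. The testis forms Cox7b2 (0.58, beside 136 for Cox7b) and Cox8c (0 counts in all 6 libraries) were at or near 0, where a count of 0 allows up to 3 counts per library. Ndufa4 had 317 CPM per kb and Ndufa4l2, a paralog linked to the response to low oxygen, 3.58.

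The largest log2 fold change of any member was that of the rare paralog Cox6b2. Cox6b2 (chr7:4751792-4753094, minus strand, mm10) had 2.0, 1.35 and 1.20 CPM in WT and 2.86, 2.52 and 2.8 CPM in KO, a log2 fold change of 0.84 (0.17 to 1.51, adjusted p = 0.377). The groups did not overlap, at levels far below those of Cox6b1 (190.4, 192 and 192 CPM in WT and 179, 206 and 235 CPM in KO, 0.11, -0.13 to 0.35). Ndufa4l2 likewise ran from 2.3 to 3.01 CPM in WT and from 3.34 to 4.83 CPM in KO (0.57, 0.02 to 1.12, adjusted p = 0.49). The muscle paralogs overlapped between groups, Cox6a2 with 11.2 to 16.6 CPM in WT and 10.8 to 19.2 CPM in KO (0.06, -0.42 to 0.53) and Cox7a1 with 0.68 to 1.5 CPM and 0.57 to 1.82 CPM (0.11, -0.95 to 1.17). Of 5 skeletal and heart muscle markers, which summed to 19.5 to 24.0 CPM in WT and 23.2 to 32.8 CPM in KO, 3 were tested and 0 passed (1 at an unadjusted p under 0.05); their part in these values was not tested. Among the abundant forms, Cox6a1 had 301 to 351 CPM in WT and 334 to 389 CPM in KO (0.14, -0.08 to 0.36). Cox8a had 288 to 317 CPM and 277 to 362 CPM (0.10, -0.15 to 0.34), Cox7a2 88.5 to 93.3 CPM and 94.5 to 106.7 CPM (0.16, -0.03 to 0.35), Cox7b 125 to 129.8 CPM and 129 to 155 CPM (0.19, -0.02 to 0.40), and Ndufa4 175 to 186 CPM and 192 to 216 CPM (0.21, 0.01 to 0.40, adjusted p = 0.481). Only Cox7a2 and Ndufa4 of these abundant forms had groups that did not overlap.

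Complex V, the ATP synthase, had the highest summed CPM of the 5 complexes, with no scaling for length. Its 15 genes summed to 3252, 3205 and 3293 CPM in WT and 3331, 3279 and 3933 CPM in KO, 8.14% higher in KO, with KO replicate 2 inside the WT range. The log2 fold change was above 0 in 14 of 15 (median 0.13), 0 passed (4 at an unadjusted p under 0.05), and in 5 the groups did not overlap. By position in the enzyme the medians were 0.09 for the 5 subunits of the catalytic head, 0.21 for the 4 of the peripheral stalk, 0.10 for the 3 genes of the c ring and 0.26 for the 3 small membrane subunits e, f and g.

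Subunits of the catalytic head differed by little, and the groups of its main pair overlapped. Atp5b, the catalytic beta subunit, had 1018, 1021 and 1040.1 CPM in WT and 1062, 970 and 1252 CPM in KO, the lowest and the highest value both being in KO (0.09, interval -0.15 to 0.33). Atp5a1, the alpha subunit, had 812, 774 and 843 CPM in WT and 831, 739.8 and 991 CPM in KO with the same spread (0.08, -0.18 to 0.33). Atp5c1, the gamma subunit that turns inside the head, had 269, 262 and 270.3 CPM in WT and 281, 283 and 312 CPM in KO, with groups apart (0.13, -0.07 to 0.32). Atp5b was the highest of the complex per kb (553 CPM per kb) and the third of all members after Cox6a1 and Cox8a.

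Stalk and membrane subunits held the smallest p values of complex V. Atp5j, the coupling factor F6 of the peripheral stalk, had 93.7, 87.9 and 86.7 CPM in WT and 96.3, 119.6 and 117 CPM in KO (0.31, interval 0.09 to 0.53, adjusted p = 0.294, and 0.075 with the block), the smallest p of any member. Its exons on chr16:84827866-84835625 (minus strand, mm10) overlap those of Gabpa on the opposite strand, and without a stated strand setting their reads cannot be told apart. Atp5l, subunit g, had 4.50, 3.18 and 4.69 CPM in WT and 5.96, 6.74 and 5.91 CPM in KO (0.59, 0.12 to 1.06, adjusted p = 0.38). Atp5j2, subunit f, had 75.1, 68.3 and 72.2 CPM in WT and 74.4, 89.3 and 94.5 CPM in KO, overlapping through KO replicate 1 (0.26, 0.03 to 0.49, adjusted p = 0.439).

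The c ring, through which protons pass, is encoded by 3 genes that give the same mature protein. By counts Atp5g3 was the highest, at 220.4 CPM per kb, beside 89.5 for Atp5g1 and 5.30 for Atp5g2. That order is uncertain, since the treatment of reads matching several places is not given. Atp5g2 has annotated pseudogenes at 100% identity over 441 bases, and Atp5g1 has 1 at 99.8%. Atp5g3 had 149, 146 and 141 CPM in WT and 155, 175 and 178 CPM in KO (0.22, interval 0.02 to 0.42, adjusted p = 0.445), with groups apart. Atp5g1 had 52.5, 53.2 and 48.5 CPM in WT and 51.6, 59.3 and 54.9 CPM in KO (0.10, -0.10 to 0.31). Atp5g2, the one member below 0, had 1.87, 2.10 and 3.49 CPM in WT and 2.07, 1.83 and 2.67 CPM in KO (-0.19, -0.90 to 0.53).

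The members are short genes, and the libraries differed in how they read short genes. The median main mRNA of the 81 was 732 bases, and 54 (66.7%) were at most 1000 bases, against a median of 2817 bases and 8.58% at most 1000 bases (1309 of 15255) among tested genes with a length. Across the 15255 genes, Spearman's rho between a gene's deviation from its mean over the libraries and its mRNA length was 0.23, 0.12 and 0.14 in WT replicates 1 to 3 and 0.21, -0.18 and -0.42 in KO replicates 1 to 3. KO replicates 2 and 3 were thus the libraries with relatively more counts in short genes, and KO replicate 1 resembled WT. These rho values describe single libraries across genes, which are not replicates.

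Other short genes showed much of the same shift. The 1258 tested genes outside the family with mRNAs of at most 1000 bases had a median log2 fold change of 0.13, and 913 were above 0. For the 4433 with mRNAs over 4000 bases the median was -0.07. The 51 members of at most 1000 bases had a median of 0.19 and the 27 longer ones 0.16. Within the family, rho between log2 fold change and length was -0.10 (78 genes), beside -0.30 over all 15255. The 15 members over 1500 bases had a median of 0.15, where 6827 other genes of 1500 to 3500 bases had 0.03.

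**Figure D3:**
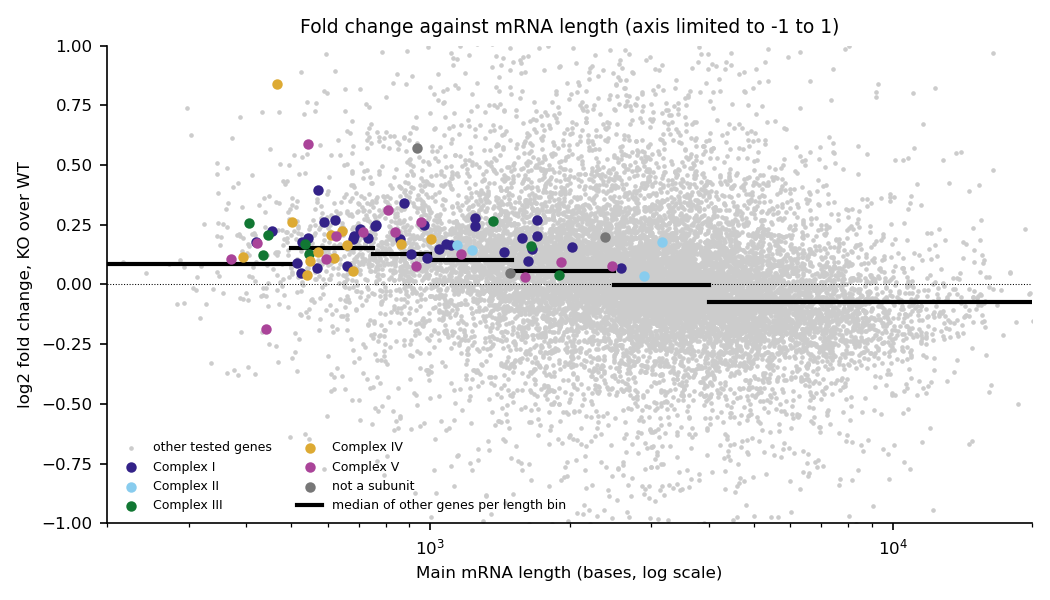
Log2 fold change of KO over WT (vertical axis, limited to -1 to 1) against main mRNA length in bases (horizontal log axis); grey points are other tested genes, coloured points are the members by complex, and black bars are the medians of the other genes in each length range. Those medians go from 0.15 at 500 to 750 bases to -0.07 over 4000 bases, and most members lie above the bar of their own length range.

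With offsets adjusted per library for mRNA length, the shift of the family was smaller. The median log2 fold change was 0.07, 61 of 78 were above 0 (52.6% of all genes), 7 had an unadjusted p under 0.05 with KO higher (4.36% of all genes), and edgeR called 0 (1.27% of all genes). By complex the adjusted medians were 0.07, 0.06, 0.06, 0.04 and 0.05 for complexes I to V. The median deviation of the members from their mean over the 6 libraries was -0.07, -0.09 and -0.09 in WT and -0.04, 0.10 and 0.23 in KO on the log2 scale before adjustment. After it the values were -0.01, -0.06 and -0.04 in WT and 0.01, 0.01 and 0.10 in KO. KO replicate 2 then lay with KO replicate 1, and KO replicate 3 remained the highest. The 1258 other short genes lay between -0.01 and 0.02 in all 6 libraries after adjustment. That follows from the fit, since the offsets were fitted on genes that include them.

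**Figure D4:**
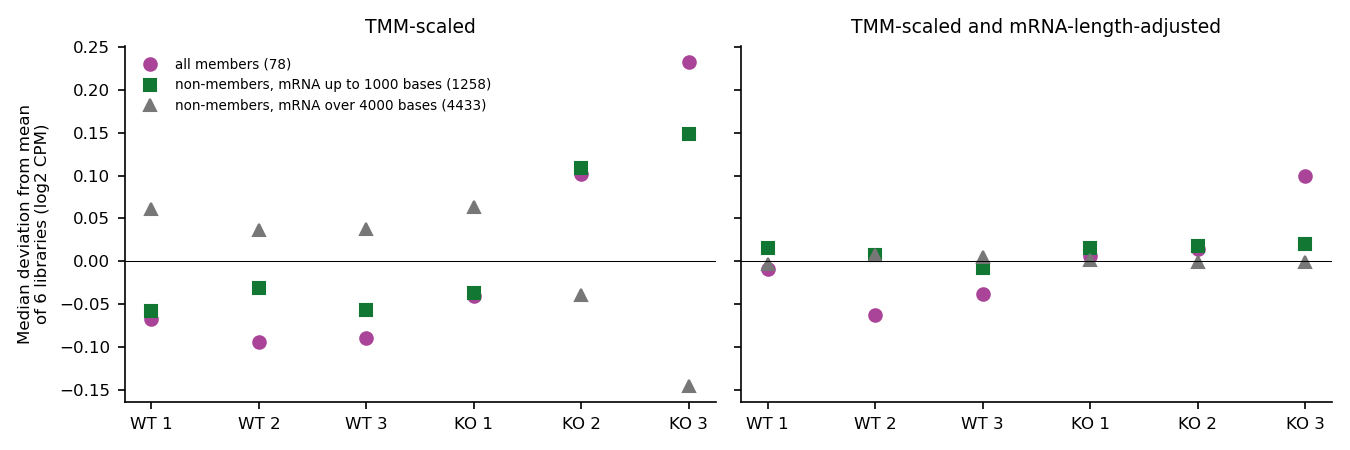
Median deviation from the mean of the 6 libraries (vertical axis, log2 CPM) in each library, for the 78 members, for other genes with mRNAs of at most 1000 bases and for other genes over 4000 bases, before (left) and after (right) adjustment for mRNA length. Before adjustment both sets of short genes lie below 0 in WT and KO replicate 1 and above 0 in KO replicates 2 and 3; the members are farthest from the other short genes in KO replicate 3 (0.23 against 0.15) and WT replicate 2 (-0.09 against -0.03).

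Cerebellar transcripts split the libraries across the groups, so the comparison was repeated within each kind. In the libraries high in them, KO replicates 1 and 3 were set against WT replicate 1, with 1 residual degree of freedom and the single WT library assumed to vary like the KO libraries. The median log2 fold change of the members was then 0.16, 74 of 78 were above 0, and edgeR called 0 (0 at an unadjusted p under 0.05) beside 0.814% of all genes; so small a comparison says little about calls. In the libraries low in them (Gabra6 at 0), KO replicate 2, which read short mRNAs relatively more, was set against WT replicates 2 and 3. The median was then 0.19, 68 were above 0, and edgeR called 8 higher: Atp5j, Atp5j2, Cox6c, Ndufa13, Ndufa2, Ndufa5, Ndufs4 and Uqcrb. In that comparison 2.68% of all genes were called higher, and its single KO library is assumed to vary like the WT libraries. Group and length bias cannot be told apart in either comparison. Between KO and WT replicate 2, the median log2 difference of the members was 0.17, and 0.04 after mRNA length adjustment. A term for cerebellar transcripts in the fit of all 6 libraries was itself called for 0 of 78 members, beside 121 of all 16592 genes. By that term 40 of 78 members were higher in the libraries high in such transcripts, beside 8217 of all 16592 genes. The part of the other cell type markers, including those of oligodendrocytes, meninges and astrocytes, in the shift of the members was not tested.

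Ndufs5, singled out after its values were seen, did not follow the groups at all. This small subunit of the complex I membrane arm, at chr4:123712710-123718202 (minus strand, mm10), had 37.5, 19.7 and 38.5 CPM in WT and 35.2, 19.6 and 44.3 CPM in KO. Both replicate 2 libraries were near 20 CPM and the other 4 at or above 35.2 CPM. Of 16592 tested genes, 17 had both replicate 2 libraries at least 0.5 below the other 4 on the log2 scale, and Ndufs5 was the 1 member among them.

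A processed pseudogene, BC002163 at chr16:42955631-42955949 (plus strand, mm10), carries nearly the whole Ndufs5 coding sequence. The copy aligned over 319 bases, at positions 93 to 411 of the 525-base Ndufs5 mRNA, with 317 identical bases and 2 differences (99.4% identity). The differences, counted from 1 at the 5′ end of the mRNA with the mRNA's base first, were T173C and A197G. They are shown in windows taken from GENCODE M21 transcripts, because these are the positions at which a read can be assigned to gene or copy within the match. The differing base is in capitals.
Ndufs5 mRNA, 153 to 193: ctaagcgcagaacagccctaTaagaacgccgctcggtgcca
BC002163, same stretch: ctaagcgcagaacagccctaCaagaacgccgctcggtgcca
Ndufs5 mRNA, 177 to 217: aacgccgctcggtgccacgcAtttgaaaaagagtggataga
BC002163, same stretch: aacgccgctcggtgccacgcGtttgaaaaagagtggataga

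BC002163 was high where Ndufs5 was low. It had 35.4, 55.6 and 33.5 CPM in WT and 31.1, 58.1 and 41.7 CPM in KO, with both replicate 2 libraries the highest. The sum of the pair was 72.9, 75.2 and 72.0 CPM in WT (73.4 ± 1.68, SD, n = 3) and 66.3, 77.7 and 86.0 CPM in KO. Ndufs5 took 51.5, 26.1 and 53.5% of that sum in WT and 53.1, 25.2 and 51.5% in KO. The total over the pair was thus steady in WT while its division was not, and the log2 fold change of Ndufs5 alone was 0.05 (interval -0.60 to 0.69).

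**Figure D5:**
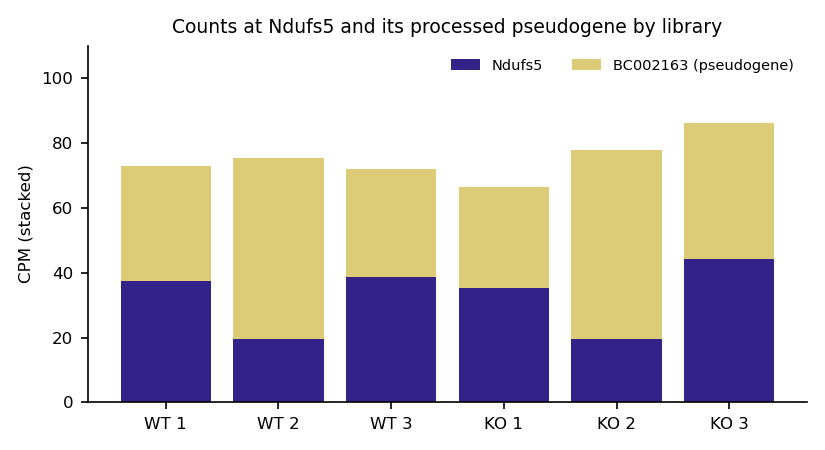
CPM counted at Ndufs5 and at its pseudogene BC002163, stacked, in each library. The stack is 66.3 to 86.0 CPM high in all libraries, and the Ndufs5 share is 26.1% of it in WT replicate 2 and 25.2% in KO replicate 2, against 51.5% to 53.5% elsewhere.

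Near-identical pseudogenes were common in the family, and how reads matching several places were treated is not given in the sources used here. For 20 members at least 1 annotated pseudogene transcript matched the main mRNA over at least 150 bases at 95% identity or more. The 4 with a copy at 100% identity were Atp5g2, Ndufb4, Atp5l (8 copies) and Cox7c, named after their values were seen, and they were counted at 5.30 to 24.9 CPM per kb (median 7.73). The 16 with copies at 95% to under 100% were counted at 35.3 to 316 CPM per kb (median 129), and the 55 tested subunits with none at 2.93 to 604 CPM per kb (median 107). For Cox7c, a small complex IV subunit, the gene held 1285 counts over the 6 libraries and its copy Gm12338 held 14827, or 11.5 times as many. Cox7c itself had 12.2 to 14.9 CPM in WT and 12.7 to 15.1 CPM in KO (0.04, -0.28 to 0.36), and Gm12338 had 142 to 155 CPM and 144 to 183 CPM. Levels of such members are uncertain, and 28 of the 81 also overlap exons of another annotated gene, 23 of them on the opposite strand only.

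Promoters of these genes are known for sites of nuclear respiratory factor 1 (NRF1) and of the ETS factor GABP, which drive nuclear genes of mitochondria. RefSeq promoters (GRCm38.p6, 250 bases before to 50 after the start) were found for 65 of the 81 members. The NRF1 letters, GCGCA followed by any base and then GCGC, searched on both strands, were in 17 of the 65 (26.2%), against 5.19% of all 27025 genes with a promoter. By complex they were in 7 of 31, 2 of 3, 1 of 5, 1 of 13 and 6 of 13 promoters of complexes I to V. To show what such a promoter looks like, the stretch nearest the start that overlaps no annotated exon is given for the highest member per kb of each complex with a match there (none for complex III), with the NRF1 letters in capitals.
Ndufa11, chr17:56717686-56717761 (plus): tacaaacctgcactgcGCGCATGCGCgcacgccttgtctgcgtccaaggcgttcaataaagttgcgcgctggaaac
Sdha, chr13:74350281-74350308 (minus): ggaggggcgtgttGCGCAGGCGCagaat
Cox6a1, chr5:115348982-115349101 (minus): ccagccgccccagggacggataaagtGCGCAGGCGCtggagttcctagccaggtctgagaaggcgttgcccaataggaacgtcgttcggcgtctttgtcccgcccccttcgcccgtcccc
Atp5h, chr11:115419963-115420082 (minus): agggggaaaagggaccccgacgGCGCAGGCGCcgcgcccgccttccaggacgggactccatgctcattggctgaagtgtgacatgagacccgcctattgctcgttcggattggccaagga

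Members with the NRF1 letters had a median log2 fold change of 0.16 (17 tested) and those without 0.17 (46 tested). The core letters of ETS factors, CCGGAAG, were in 16 of 65 promoters (24.6%, all genes 9.93%), the YY1 letters AANATGGCG in 10 (15.4%, all genes 2.76%) and the letters AAGGTCA of estrogen-related receptors in 8 (12.3%, all genes 5.38%). The letters TATAAA of a TATA box were in 7 (10.8%, all genes 15.7%). A match describes the letters of these windows and is not evidence of binding in these samples.

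Genes around the pathway were counted in lists outside the members, and edgeR called 0 of them in any list. At an unadjusted p under 0.05 there were 10, each higher in KO, against 4.4% of all genes. The 9 tested genes of the chain and of ATP synthase outside the naming rule were all above 0 with a median log2 fold change of 0.25. Beside subunits such as Cox4i1 they include cytochrome c, the ATP synthase inhibitor Atpif1 and Cox7a2l. The 13 subunits encoded by mitochondrial DNA were not analysed here. In that list 2010107E04Rik, a small ATP synthase subunit, had the smallest p, with 49.1, 45.3 and 42.2 CPM in WT and 51.4, 62.0 and 59.7 CPM in KO (0.34, adjusted p = 0.263). Cox7a2l, a gene linked to supercomplexes of complexes III and IV, passed in edgeR with the replicate block (adjusted p = 0.016) and not without it (adjusted p = 0.605). It had 110.4, 76.0 and 145 CPM in WT and 143, 116 and 164 CPM in KO.

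Assembly factors, which build the complexes and are not part of them, were above 0 in 28 of 42 (median 0.08), and in 22 of 42 with mRNA length offsets (median 0.03). Ecsit, a complex I assembly factor, led with 36.4, 37.4 and 35.3 CPM in WT and 44.1, 45.5 and 41.1 CPM in KO (0.26, adjusted p = 0.393). Of the regulators of mitochondrial biogenesis, whose median mRNA was 3656 bases, 6 of 15 were above 0 (median -0.03, and -0.01 with the offsets), and 0 had an unadjusted p under 0.05. Ppargc1a, the coactivator PGC-1alpha, had 64.8, 55.7 and 55.8 CPM in WT and 61.2, 48.3 and 39.8 CPM in KO (-0.24, adjusted p = 0.627). Its value ran from -0.42 without KO replicate 1 to -0.10 without KO replicate 3.

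In neighbouring metabolism the medians lay between 0.07 and 0.11. The citric acid cycle had 13 of 16 genes above 0 (median 0.09), led by Suclg1, a subunit of succinyl-CoA ligase, with 72.6 ± 2.75 CPM in WT and 86.9 ± 9.33 CPM in KO (0.26, adjusted p = 0.405). Glycolysis had 15 of 16 above 0 (median 0.07), led by Gapdh at 15.4 ± 1.96 CPM and 19.1 ± 1.44 CPM (0.31, adjusted p = 0.505). The level of Gapdh is uncertain, since the treatment of reads that match several places is not given and its copies were not searched. Mitochondrial carriers and import proteins had 17 of 18 above 0 (median 0.11), led by the phosphate carrier Slc25a3 at 222 ± 7.41 CPM and 261 ± 25.4 CPM (0.24, adjusted p = 0.451). With mRNA length offsets the medians of these 3 lists were 0.08, 0.06 and 0.06, and that of the chain and ATP synthase genes outside the naming rule 0.18. All of these are SD over 3 libraries a group, and the medians are descriptions beside the 0.01 of all tested genes.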

How the data were processed

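The authors deposited whole-number counts for each gene (exons, UCSC knownGene) and a normalized signal, equal to the count over 1 factor per library. The mm10 build, featureCounts 1.5.0 after STAR 2.3.0e alignment, and Trimmomatic 0.32, FastQC 0.11.2 and DESeq2 are named per the submitters' processing notes. Strand setting and handling of multi-mapping reads are not given in the sources used here. Per the labels' protocols, libraries followed an Illumina mRNA protocol with paired reads.

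From the deposited counts, 16592 genes kept by filterByExpr were scaled with TMM and KO was compared with WT in edgeR 4.0.16 (quasi-likelihood test, R 4.3.3, no covariate, Benjamini-Hochberg over all tested genes, call at 0.05). Intervals are 95% intervals of the log2 fold change. The scripts were tested on simulated data. DESeq2 1.42.0, limma 3.58.1, other scalings and filters, each library left out, terms for cerebellar transcripts (Gabra6 above 5 CPM) and sex, and offsets per library for length or GC content (loess, span 0.5) were alternatives.

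Lengths are those of the main GENCODE M21 mRNA of a gene, and copies were found with blastn. Members and lists were chosen with earlier results of these data known. Named genes are the 3 smallest p and the highest level per kb of each complex, catalytic core subunits, tissue paralogs, members failing the filter, Prmt5 and the smallest p of each other list; others were named after their values were seen. One gene the rule names is not reported here. Deviations of same-numbered samples correlated at 0.351, 0.334 and 0.177, all over 0.1, and those of differently numbered samples at -0.381 to 0.1002. The highest of the latter, WT replicate 3 with KO replicate 2, was thus also just over 0.1. Deviations were taken from each group's own mean, so high same-numbered values push the others low by construction. The contrast between the sets is therefore not separate support for pairing. For the blocked fit the replicate number was assumed to pair libraries, which the labels do not state. Both replicate 1 libraries were high in cerebellar transcripts, and whether same-numbered libraries share a litter or batch was not tested. The main test has no block, and the blocked fit is an alternative.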

Additional observations from a re-analysis of the deposited data

How the results depend on the processing

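Over 27 alternatives, 5 of them added after seeing the data (mRNA length offsets with and without the replicate block, GC offsets with the block, and the libraries high or low in cerebellar transcripts alone), the 31 named genes gave 837 values, of which 799 kept direction and call, 15 became called and 23 changed sign. The members called were 0 except when a library was left out (0 to 2) and in the libraries low in cerebellar transcripts (8). Leaving out 1 library at a time gave member medians of 0.11 to 0.24, with 0.11 to 0.25, 0.04 to 0.20, 0.07 to 0.21, 0.14 to 0.24 and 0.11 to 0.22 for complexes I to V. With the replicate block the members called stayed at 0 and their median was 0.17; it added the calls of Prmt5, of Cox7a2l in the other lists and of 1 marker each of the precursor, meningeal and granule cell lists, and it called 566 genes in all against 199 without it. The other lists also had 1 call with the cerebellum term and block, 2 with GC offsets and block and 2 in the libraries low in cerebellar transcripts.

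With mRNA length offsets the median was 0.0677 for all members (0.0659 with the block), 0.0732 for complex I (0.0727), 0.0554 for complex III (0.0534) and 0.0355 for complex IV (0.0359), and with exon length offsets 0.0594 for complex III (0.0576) and 0.0387 for complex IV (0.0391). Complex II had 0.0256 with the cerebellum term and block and 0.0349 in the libraries low in cerebellar transcripts. The cause of these moves, beyond the offsets' own construction, was not tested.

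With the cerebellum term and block, Atp5a1 was at -0.016, Atp5b at -0.0060, Ndufs5 at -0.053 and Sdhd at -0.0038. In the libraries low in cerebellar transcripts, Atp5a1 was at -0.128, Atp5b at -0.087, Ndufs5 at -0.576, Sdha at -0.013, Sdhb at -0.012 and Uqcrc1 at -0.040, and in those high in them Ndufs1 at -0.0083. Ndufs5 was at -0.233 with the cerebellum term, -0.080 with exon length offsets (-0.087 with the block) and -0.084 with mRNA length offsets (-0.092 with the block). Leaving out 1 library at a time, Atp5a1 ran from -0.044 to 0.17, Atp5b from -0.015 to 0.17, Ndufs5 from -0.221 to 0.314 and Sdha from -0.018 to 0.071, each lowest without KO replicate 3; Ndufs5 was also below 0 without WT replicate 2 or KO replicate 1, and Sdha without WT replicate 2.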
